A study of Mus musculus with 16 samples.

Results

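The response to oxygen-glucose deprivation (OGD) was described in primary neuronal cultures (PNCs) from the mouse cortex that had received vehicle alone, by comparing the OGD-VEH with the CONTROL-VEH cultures. The members are these 8 of the 16 cultures of the series, 4 in each group, read over the 21901 of 53679 gene symbols that are protein-coding. The PNCs were wild type (the label gives wt), were prepared from fetuses at embryonic day 15 and received vehicle on day in vitro (DIV) 8. The vehicle was DMSO according to the study's methods, although the sample labels call these cultures untreated. After 24 h, on DIV 9, OGD-VEH cultures were kept without oxygen and glucose for 3 h and then reoxygenated for 6 h, and CONTROL-VEH cultures were handled as sham; RNA was taken at the end of the 6 h. The other 8 cultures had received 10 μM tianeptine (TIA), an antidepressant, and form the groups CONTROL-TIA and OGD-TIA. The sources do not say whether the 4 cultures of a group came from separate dissections, so the tests measure the spread between cultures, which may be in part technical.

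OGD is used as a culture model of ischemic stroke. Loss of oxygen and glucose stops ATP production, lets glutamate accumulate and overloads neurons with calcium, and reoxygenation adds oxidative stress. Neurons and glia are known to answer with immediate early transcription factors, with the integrated stress, heat shock and antioxidant programs, with p53 and death receptor genes, and later with inflammatory and matrix genes, while the genes of synaptic function are often reduced.

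For each gene symbol, the deposited FPKM (fragments per kilobase, scaled to the reads mapped in each library) of the isoforms were summed. Depth, estimated from the FPKM that 1 read gives, was 18.7 to 23.3 M reads per culture, so that 1 read on a 1-kb transcript was worth 0.0452 to 0.0562 FPKM. In every culture, 12990 to 13239 protein-coding genes reached 0.5 FPKM. Values of single cultures are given below in the order CONTROL-VEH 1, 2, 3, 4 and OGD-VEH 9, 10, 11, 12.

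The labelled cell type was first checked against marker genes. All 9 neuronal markers were expressed in every culture, and their summed level was 3890 to 4420 FPKM in CONTROL-VEH and 1580 to 3460 FPKM in OGD-VEH, without overlap. The 9 markers of cortical excitatory neurons summed to 381 to 425 FPKM in CONTROL-VEH and 115 to 361 FPKM in OGD-VEH. In bulk RNA, fewer cells of a type and less RNA per cell cannot be told apart. Map2, the dendritic microtubule protein, had 512, 594, 667 and 655 FPKM in CONTROL-VEH and 548, 580, 508 and 486 FPKM in OGD-VEH, and these ranges overlapped (log2 fold change -0.19, SE 0.10, limma padj = 0.223). The pan-neuronal tubulin Tubb3 had 815, 871, 1010 and 1220 FPKM in CONTROL-VEH and 767, 486, 480 and 269 FPKM in OGD-VEH, all OGD-VEH cultures being below all controls, but the test was not passed (log2 fold change -1.05, SE 0.29, limma padj = 0.0535).

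Glial RNA was present in both groups. The 10 astrocyte markers summed to 813 to 1690 FPKM in CONTROL-VEH and 1090 to 2730 FPKM in OGD-VEH. The overlap came from CONTROL-VEH 4 alone, the other controls having 813 to 974 FPKM. Of these 10 markers, 9 had a log2 fold change above 0 and 0 were called by limma, and the median was 0.73. By unadjusted p under 0.05, 4 of the 10 were higher, against 21.7% of protein-coding genes tested. Gfap, the intermediate filament of astrocytes, had 6.95, 6.53, 7.56 and 87.4 FPKM in CONTROL-VEH and 26.2, 13.1, 18.4 and 85.9 FPKM in OGD-VEH, so that CONTROL-VEH 4 and OGD-VEH 12 stood apart from the other cultures of their groups. Of the 10 markers of the oligodendrocyte lineage, 8 were tested and 4 rose, against 2.69% of all protein-coding genes tested, namely Olig1, Olig2, Cspg4 and Sox10, the last with overlapping groups. The transcription factor Olig2 had 44.9, 48.8, 55.4 and 51.1 FPKM in CONTROL-VEH and 69, 169, 154 and 174 FPKM in OGD-VEH (change on the log2 scale 1.41, SE 0.28, limma padj = 0.0347), while Mbp, a myelin protein of mature oligodendrocytes, had 5.88, 7.02, 5.73 and 10.1 FPKM in CONTROL-VEH and 4.87, 3.72, 3.66 and 2.97 FPKM in OGD-VEH and a log2 fold change of -0.88, too small for a call. All 10 markers of progenitors and cycling cells had a log2 fold change above 0, with a median of 1.07, and Nes was the 1 of them called.

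Most markers of other cells were under the filter on low values, a mean of 0.5 FPKM. Of 12 microglial markers, 10 were under it, and the microglial receptor Cx3cr1 did not exceed 0.02 FPKM in any culture. The other 2 were Aif1, at 0.242 to 1.64 FPKM and not called, and Cd68, a lysosomal glycoprotein of phagocytic cells, which had 4.73, 1.58, 2.06 and 1.75 FPKM in CONTROL-VEH and 9.72, 14.4, 12.4 and 11.9 FPKM in OGD-VEH (change on the log2 scale 2.34, SE 0.33, limma padj = 0.0281). Of 8 endothelial markers, 6 were under the filter. Cldn5, a tight junction protein of endothelial cells, was listed at 0 in all OGD-VEH cultures and did not exceed 0.039 FPKM in CONTROL-VEH. The other 2 were Esam, at 0.361 to 1.54 FPKM, and Slco1c1, a thyroid hormone transporter, at 9.59 to 26.6 FPKM, which made up most of the endothelial sum of 13.9 to 18.2 FPKM in CONTROL-VEH and 12.5 to 28.6 FPKM in OGD-VEH. Of 9 markers of mural cells and fibroblasts, 6 were under the filter, Col1a1 and Acta2 among them, and the sums were 12.6 to 18.6 and 8.61 to 17.4 FPKM. The other 3 were Dcn, decorin, at 2.2 to 14.4 FPKM, Pdgfrb at 0.951 to 4.74 FPKM and Tagln at 0.303 to 9.86 FPKM. By limma 0 of the endothelial, mural and fibroblast markers were called. By unadjusted p under 0.05, 1 was higher and 1 lower, against 21.7% and 16.4% of protein-coding genes tested.

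**Figure D1:**
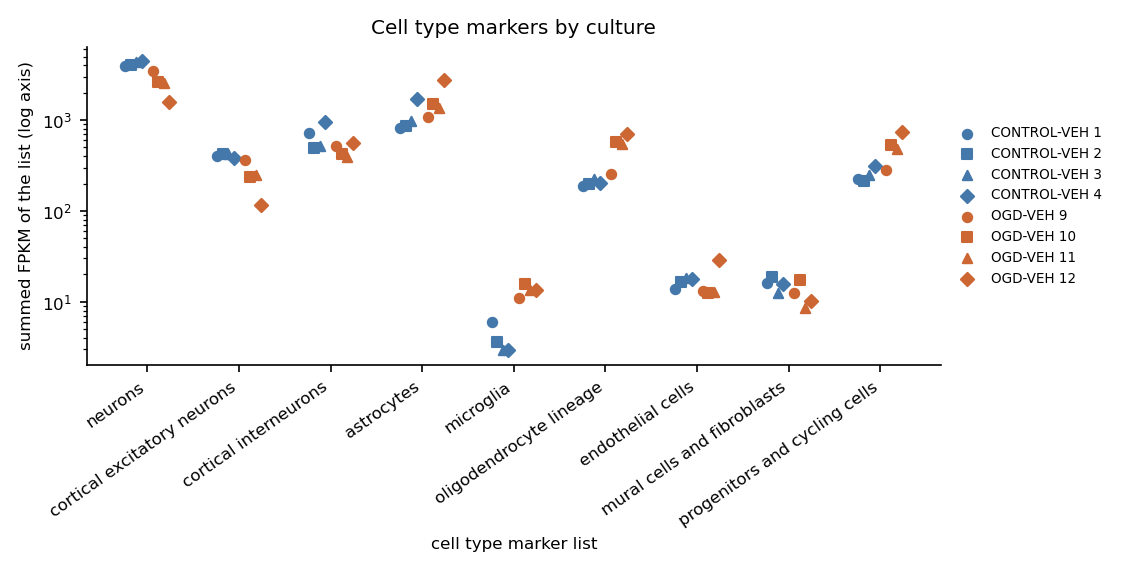
Summed FPKM of each cell type marker list (log axis) in the 4 CONTROL-VEH (blue) and 4 OGD-VEH (orange) cultures, 1 symbol per culture. Neuronal marker sums were 3890 to 4420 in CONTROL-VEH and 1580 to 3460 in OGD-VEH, and oligodendrocyte lineage sums were 186 to 223 and 255 to 707.

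Differential expression was tested with limma on log2(FPKM + 0.1) over the 16346 genes whose mean over the 8 cultures was 0.5 FPKM or more, of which 13265 are protein-coding. Differentially expressed genes (DEGs) passed a padj of 0.05 (Benjamini-Hochberg) and changed by 1 or more on the log2 scale in either direction. Of the protein-coding genes, 357 were upregulated (2.69% of those tested) and 246 downregulated (1.85%). A gene was called separated where its 4 OGD-VEH values all lay above, or all below, its 4 CONTROL-VEH values. This held upwards for 1836 protein-coding genes (13.8%) and downwards for 1475 (11.1%), among them 345 of the upregulated and 239 of the downregulated DEGs. By unadjusted p under 0.05, 2883 protein-coding genes were higher (21.7%) and 2169 lower (16.4%).

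The DEG calls lay close to the threshold. The smallest padj of a protein-coding gene was 0.0138 and the median padj of the DEGs was 0.04. Over all genes, 393 were upregulated (2.4%) and 275 downregulated (1.68%). Without CONTROL-VEH 2 the numbers were 1 and 0, and without OGD-VEH 9 they were 1185 and 1001. Leaving out any other culture gave between 1 and 43 upregulated and between 0 and 28 downregulated genes. The fold changes moved less. In these 8 repeats, the median ratio of the log2 fold changes of the DEGs still tested to the reported values was between 0.881 and 1.16. All of these DEGs kept their sign, but for a separated gene this is fixed in advance when 1 culture is left out. Fold changes and separation are therefore given beside each call below.

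**Figure D2:**
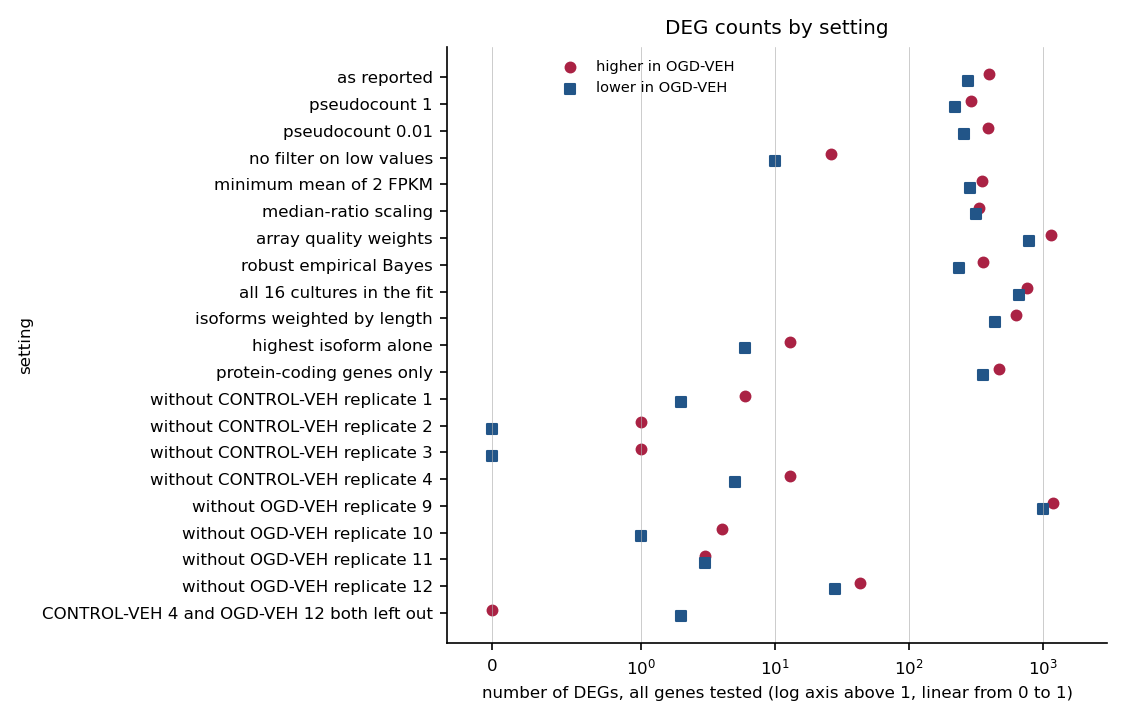
Number of DEGs over all genes tested (x axis, log above 1) for the reported setting and for each alternative (y axis), with upregulated genes as circles and downregulated genes as squares. The reported setting gave 393 and 275, leaving out OGD-VEH 9 gave 1185 and 1001, and leaving out CONTROL-VEH 2 gave 1 and 0.

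The OGD-VEH cultures differed from the controls to unequal degrees. OGD-VEH 9 had the value nearest to the controls for 317 of the 357 upregulated and 208 of the 246 downregulated protein-coding DEGs, and OGD-VEH 12 the farthest value for 270 and 194. The median change of the upregulated DEGs from the CONTROL-VEH mean was 0.84 in OGD-VEH 9, 1.72 in OGD-VEH 10, 1.60 in OGD-VEH 11 and 2.09 in OGD-VEH 12 on the log2 scale. For the downregulated DEGs it was -0.66, -1.41, -1.34 and -1.93 in the same cultures. The root mean square log2 distance was 0.463 to 0.975 between OGD-VEH cultures, 0.509 to 0.676 between CONTROL-VEH cultures and 0.552 to 1.19 between cultures of different groups.

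The gap between the groups, the log2 distance between the nearest values of OGD-VEH and CONTROL-VEH cultures, was at least 1 for 42 protein-coding genes upwards (0.317%) and 10 downwards (0.0754%), and at least 2 for 4 upwards and 0 downwards. The widest gap upwards was that of Emp1 (GRCm38 chr6:135362545-135383173), a small membrane protein of injured and growing cells, with 1.22, 0.647, 1.14 and 0.369 FPKM in CONTROL-VEH and 9.85, 30.9, 21.7 and 34.2 FPKM in OGD-VEH (change on the log2 scale 4.65, SE 0.46, limma padj = 0.0161). Its lowest OGD-VEH value, that of culture 9, was above its highest control by 2.91 on the log2 scale. Timp1 (chrX:20870166-20874735), a secreted inhibitor of matrix metalloproteinases, had 0.522, 0.299, 0.525 and 0 FPKM in CONTROL-VEH and 3.78, 7.18, 4.93 and 10.2 FPKM in OGD-VEH (change on the log2 scale 4.13, SE 0.61, limma padj = 0.0281), with a gap of 2.64. Fosl1 (chr19:5447547-5455946), a FOS-family subunit of the transcription factor AP-1, had 0.341, 0.029, 0.076 and 0 FPKM in CONTROL-VEH and 1.96, 7.93, 6.77 and 8.63 FPKM in OGD-VEH (change on the log2 scale 4.98, SE 0.60, limma padj = 0.0266) and a gap of 2.22. Control levels of Timp1 and Fosl1 were at or below 0.525 FPKM, so their fold changes depend on the 0.1 FPKM that was added: with 1 FPKM they were 2.44 and 2.59, with 0.01 FPKM 5.14 and 6.55.

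Tnfrsf1a (chr6:125349362-125362484), the main receptor of tumor necrosis factor, was already expressed in controls and had 5.69, 6, 11.2 and 6.46 FPKM in CONTROL-VEH and 45.3, 86.6, 78.7 and 176 FPKM in OGD-VEH (change on the log2 scale 3.59, SE 0.40, limma padj = 0.0193). It separated the groups by a gap of 2.0, with the highest value in OGD-VEH 12, and its log2 fold change was 2.41 where each isoform was weighted by its length. Gbp2 (chr3:142620602-142638008), an interferon-inducible GTPase, had 0.297, 0.243, 0.246 and 0.103 FPKM in CONTROL-VEH and 1.44, 11.6, 9.35 and 9.53 FPKM in OGD-VEH (change on the log2 scale 4.35, SE 0.63, limma padj = 0.0281). Here 3 of the OGD-VEH cultures were close to each other and OGD-VEH 9 lay lower, though still above every control. Each of these genes reached the smallest two-sided p, 0.0286, that an exact permutation test over the 70 assignments of 8 cultures can give, as does every separated gene.

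Among the DEGs with the largest upward fold changes were also 2 chemokines, which attract leukocytes. Cxcl10 (chr5:92346638-92348889) had 0.328, 0.212, 0.153 and 0.081 FPKM in CONTROL-VEH and 0.948, 11.9, 8.61 and 13.5 FPKM in OGD-VEH (change on the log2 scale 4.47, SE 0.78, limma padj = 0.0336). Ccl2 (chr11:82035571-82037453) had 0, 0.196, 0.066 and 0.278 FPKM in CONTROL-VEH and 0.599, 11, 5.73 and 7.57 FPKM in OGD-VEH (change on the log2 scale 4.38, SE 0.86, limma padj = 0.0347). In both, 3 OGD-VEH cultures were at least 5.73 FPKM and OGD-VEH 9 was under 1 FPKM but above all controls. With 1 FPKM added in place of 0.1, the log2 fold changes of Cxcl10, Ccl2 and Gbp2 were 2.69, 2.35 and 2.64. Other genes that were low in controls and are described below shrank likewise, Atf3 to 1.37, Hspb1 to 1.62 and Fas to 1.86.

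Downwards, the widest gap was that of Rnf32 (chr5:29195992-29228457), a RING finger protein, with 41.5, 31, 33.3 and 38.1 FPKM in CONTROL-VEH and 5.44, 7.98, 9.89 and 2.37 FPKM in OGD-VEH (change on the log2 scale -2.64, SE 0.39, limma padj = 0.0282). Slc41a2 (chr10:83230848-83337882), a magnesium transporter, had 59.7, 51.7, 47 and 31.5 FPKM in CONTROL-VEH and 10.9, 8.71, 12.2 and 9.64 FPKM in OGD-VEH (change on the log2 scale -2.16, SE 0.21, limma padj = 0.016), and its OGD-VEH values lay close together. Tppp (chr13:74009407-74035753), a tubulin polymerization promoting protein, had 75, 97.5, 62.9 and 88.8 FPKM in CONTROL-VEH and 27.3, 11.4, 11.7 and 21.8 FPKM in OGD-VEH (change on the log2 scale -2.25, SE 0.30, limma padj = 0.0266). The sizes of these 3 changes depended on how isoforms were combined, and with isoforms weighted by length they were -1.41, -0.59 and -1.05, so that Slc41a2 no longer passed the fold threshold. Epha6 (chr16:59653483-60605531), an ephrin receptor, had 3.78, 4.33, 4.1 and 3.11 FPKM in CONTROL-VEH and 1.32, 0.762, 0.87 and 0.328 FPKM in OGD-VEH (change on the log2 scale -2.21, SE 0.35, limma padj = 0.0319).

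Ddn (chr15:98803777-98809490), a protein of dendritic spines, had 139, 206, 235 and 201 FPKM in CONTROL-VEH and 81.1, 24, 42.4 and 16.6 FPKM in OGD-VEH (change on the log2 scale -2.48, SE 0.45, limma padj = 0.0336, and -1.34 with isoforms weighted by length). The gene model Gm20662 (chr9:107996349-108045270) also separated the groups but varied widely within OGD-VEH, with 42.7, 29.7, 28.7 and 27.2 FPKM in CONTROL-VEH and 0.079, 7.62, 11.8 and 0 FPKM in OGD-VEH, and was not called (log2 fold change -4.81, SE 1.51, limma padj = 0.0692). Rasal1, a GTPase-activating protein of RAS, and Galntl6, a glycosyltransferase, had log2 fold changes of -2.44 and -2.39, both with limma padj under the threshold and separated. The hemoglobin gene Hbq1a was low in all cultures, at 0.646 to 2.04 FPKM in CONTROL-VEH and 0.015 to 0.427 FPKM in OGD-VEH (change on the log2 scale -2.52, SE 0.55, limma padj = 0.0401).

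**Figure D3:**
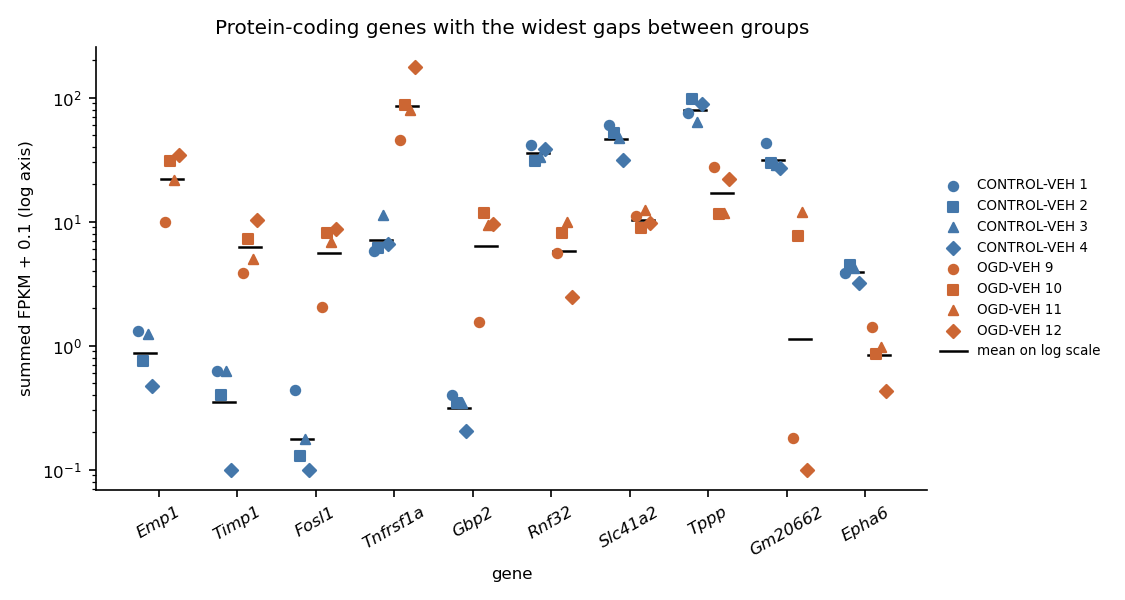
Summed FPKM plus 0.1 (log axis) of the 5 protein-coding genes with the widest gap upwards and the 5 with the widest gap downwards, 1 symbol per culture, with CONTROL-VEH in blue and OGD-VEH in orange; the horizontal bar is the mean on the log scale. Emp1 was 0.369 to 1.22 FPKM in CONTROL-VEH and 9.85 to 34.2 FPKM in OGD-VEH, and Rnf32 was 31 to 41.5 and 2.37 to 9.89 FPKM.

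The promoters of 2 of these genes are shown because both belong to the most increased and carry letters of known stress and inflammatory response elements. The stretches come from RefSeq (GRCm38.p6), are read 5′ to 3′ on the strand of the gene and end before the first annotated transcript, which for Gbp2 lies 61 bases before the RefSeq start. Capitals mark matches to the AP-1 site (TGANTCA), the interferon-stimulated response element (GAAANNGAAA) and the NF-kappaB site, each searched on both strands.
Cxcl10, chr5:92348890-92349139, minus strand: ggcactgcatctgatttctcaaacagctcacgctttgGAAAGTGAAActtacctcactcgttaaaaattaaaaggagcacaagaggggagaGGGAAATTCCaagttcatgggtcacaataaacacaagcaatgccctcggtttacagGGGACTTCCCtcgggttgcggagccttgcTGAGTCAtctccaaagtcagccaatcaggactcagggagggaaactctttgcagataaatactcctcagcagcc
Gbp2, chr3:142620413-142620601, plus strand: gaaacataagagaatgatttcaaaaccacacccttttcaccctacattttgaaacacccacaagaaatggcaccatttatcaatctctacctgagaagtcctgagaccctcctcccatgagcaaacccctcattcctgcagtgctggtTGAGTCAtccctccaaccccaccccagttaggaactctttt
The stretch of Cxcl10 holds, in this order, the interferon-stimulated response element 213 to 204 bases before the RefSeq start, the NF-kappaB sites at 159 to 150 and 103 to 94 bases and the AP-1 site at 74 to 68 bases. That of Gbp2 holds an AP-1 site 41 to 35 bases before the end of the printed letters, or 102 to 96 bases before the RefSeq start.

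Over the genes for which RefSeq gave a window of 250 bases before the start, AP-1 letters stood in 22 of 283 upregulated protein-coding DEGs (7.77%), in 7 of 179 downregulated DEGs (3.91%) and in 386 of 10291 protein-coding genes tested (3.75%). The NF-kappaB letters stood in 6.36%, 6.70% and 4.36% of the same windows, and the interferon-stimulated response element in 3.18%, 3.91% and 2.27%. For the cAMP response element (TGACGTCA) the shares were 3.53%, 2.23% and 2.84%, and for the core of the antioxidant response element (TGACNNNGC), which can overlap the AP-1 site, 13.4%, 7.26% and 11.7%. The TATA box (TATAAA) stood in 11%, 7.82% and 6.00%, and the CArG box in 2.47%, 0.559% and 1.15%. The core of the hypoxia response element (ACGTG) stood in 14.8%, 19.0% and 21.9%. These are counts of letters and say nothing of binding.

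The response was next followed through 16 pathway lists with 995 distinct genes, each read against the protein-coding background of 2.69% upregulated and 1.85% downregulated genes, 13.8% separated upwards and 11.1% downwards, and a median log2 fold change of 0.10. This background is a rough yardstick, because it depended on expression level. Of 4 groups of near equal size by level, the lowest had 6.6% upregulated DEGs and the highest 0.573%. The downregulated shares were 1.96% and 2.05%. A gene that is low in controls can pass the filter through OGD-VEH alone, so counts and medians describe the genes tested and not the whole list. The lowest group by level began at -3.32 on the log2(FPKM + 0.1) scale. It could therefore hold such genes, and the filter itself can raise its upregulated share. Genes with a CONTROL-VEH mean under 0.5 FPKM made up 11 of the 52 inflammatory, 8 of the 80 matrix and at most 4 of the genes tested in each other list. Where members are named beyond the rule for named genes, they were picked after their values were seen, as the remaining called members of a list.

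Immediate early genes encode transcription factors switched on within minutes by calcium and kinase signaling. Of 37 genes, 34 were tested, of which 6 rose (17.6%) and 1 fell (2.94%), and the median log2 fold change was 0.29. Upwards 9 were separated (26.5%) and downwards 3 (8.82%), so the downward shares were near the background. Of the 6 risers, Fosl1 and Atf3 had a CONTROL-VEH mean under 0.5 FPKM. Beside Fosl1, the risers were Fos, Atf3, Ier3, Btg2 and Crem. Fos, the founding partner of AP-1, had 1.99, 1.68, 2.35 and 3.88 FPKM in CONTROL-VEH and 5.08, 23.2, 10.4 and 10.1 FPKM in OGD-VEH (change on the log2 scale 2.12, SE 0.44, limma padj = 0.0371), with culture 10 highest and culture 9 lowest of the OGD-VEH cultures. The stress-induced factor Atf3 was 0.270 to 0.313 FPKM in CONTROL-VEH and 0.621 to 4.24 FPKM in OGD-VEH (change on the log2 scale 2.54, SE 0.53, limma padj = 0.0367). Crem, a cAMP-responsive factor, rose from 8.16 ± 2.46 to 18.2 ± 2.51 FPKM (SD, n = 4 each).

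Egr3, an activity-dependent zinc finger factor, fell instead and had 8.66, 19.1, 20.3 and 13.7 FPKM in CONTROL-VEH and 5.33, 4.43, 4.55 and 1.57 FPKM in OGD-VEH (change on the log2 scale -1.99, SE 0.41, limma padj = 0.0372), with culture 12 lowest. Its relative Egr1 had 8.46, 7.74, 9.33 and 16 FPKM in CONTROL-VEH and 9.58, 33.6, 18.6 and 17.8 FPKM in OGD-VEH, with overlap and no call (log2 fold change 0.86, SE 0.38, limma padj = 0.144). Jun, the partner of Fos in AP-1, had 37.8, 36.6, 37.8 and 33.1 FPKM in CONTROL-VEH and 28.9, 42.8, 42 and 52.5 FPKM in OGD-VEH, and the groups overlapped (log2 fold change 0.16, SE 0.18, limma padj = 0.532). The log2 fold changes were 4.98 for Fosl1, 2.12 for Fos and 0.16 for Jun.

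Among 23 genes of MAP kinase feedback, all tested, 2 rose and 0 fell, and the median was 0.34. Both were dual-specificity phosphatases that inactivate ERK in the nucleus. Dusp4 had 13.5, 14, 16.2 and 9.16 FPKM in CONTROL-VEH and 24.5, 55.3, 61.3 and 80.7 FPKM in OGD-VEH (change on the log2 scale 1.97, SE 0.35, limma padj = 0.0336). Dusp5 was lower in level, at 1.57 to 2.40 FPKM in CONTROL-VEH and 2.88 to 4.83 FPKM in OGD-VEH (change on the log2 scale 1.16, SE 0.23, limma padj = 0.0347). Dusp1, a phosphatase of stress-activated kinases, had 11.4, 8.85, 9 and 9.44 FPKM in CONTROL-VEH and 5.9, 9.54, 9.43 and 9.52 FPKM in OGD-VEH, and Dusp6, the cytoplasmic ERK phosphatase, 11.2 to 22.4 FPKM and 9.84 to 31.1 FPKM, both with overlapping groups and no call (log2 fold changes -0.19 and 0.13).

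The integrated stress response and the unfolded protein response, which lower translation and raise chaperones when amino acids, energy or protein folding fail, had a median of 0.29 over 44 genes, all tested. Sesn2 and Cebpb rose and no gene fell, and 12 genes were separated upwards. Sesn2, a stress-induced inhibitor of mTORC1 that also counts among the p53 targets, had 12, 10.4, 12.8 and 7.05 FPKM in CONTROL-VEH and 15.6, 25.7, 28.1 and 32.5 FPKM in OGD-VEH (change on the log2 scale 1.25, SE 0.27, limma padj = 0.0383). Ddit3, which encodes the pro-apoptotic factor CHOP, had 20.2, 14.1, 15.8 and 16.2 FPKM in CONTROL-VEH and 20.9, 28.5, 25.9 and 34.7 FPKM in OGD-VEH, and was separated with padj under the threshold but a fold change under it (log2 fold change 0.72, SE 0.18, limma padj = 0.0484). Its activator Atf4 and the chaperone Hspa5 of the endoplasmic reticulum overlapped between groups, with log2 fold changes of 0.19 and -0.13.

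Of 31 heat shock genes and co-chaperones, which refold damaged proteins, all were tested, 4 rose and 0 fell, and the median was 0.04. The 4 were the small heat shock proteins Hspb1, Cryab and Hspb8 and the co-chaperone Bag3, which works with Hspb8. Hspb1 had 0.637, 0.712, 0.651 and 0.078 FPKM in CONTROL-VEH and 2.3, 4.62, 2.41 and 6.09 FPKM in OGD-VEH (change on the log2 scale 2.77, SE 0.55, limma padj = 0.0347). Cryab had 2.41, 1.62, 1.8 and 3.46 FPKM in CONTROL-VEH and 4.05, 9.56, 8.51 and 15.7 FPKM in OGD-VEH (change on the log2 scale 1.89, SE 0.41, limma padj = 0.0389). Hspb8 rose from 3.54 ± 0.741 to 12.9 ± 8.54 FPKM and Bag3 from 0.838 ± 0.0604 to 3.34 ± 1.72 FPKM (SD, n = 4 each). The inducible Hspa1b was 2.19 to 7.81 FPKM in CONTROL-VEH and 3.17 to 7.05 FPKM in OGD-VEH, and the abundant Hspa8 5670 to 6490 and 5240 to 6920 FPKM, with log2 fold changes of -0.08 and -0.09 and no call; the sign of Hspa1b turned when single cultures were left out. Small heat shock proteins are also expressed by astrocytes, whose summed markers were 813 to 1690 FPKM in CONTROL-VEH, or 813 to 974 FPKM without CONTROL-VEH 4, and 1090 to 2730 FPKM in OGD-VEH; their part in these values was not tested.

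Of 43 antioxidant and metal-binding genes, all were tested, 9 rose (20.9%) and 0 fell, 16 were separated upwards and the median was 0.70. The transcription factor Nfe2l2 (NRF2), which drives many of the others under oxidative stress, rose from 8.9 ± 2.01 to 40.4 ± 19.3 FPKM (SD, n = 4 each; log2 fold change 2.04, SE 0.37, limma padj = 0.0337). Its classical targets in glutathione and thioredoxin metabolism rose too. Gclc and Gclm, the subunits of the enzyme that starts glutathione synthesis, rose from 22.2 ± 4.52 to 65.1 ± 22.4 FPKM and from 72 ± 15.7 to 313 ± 165 FPKM. Txnrd1, thioredoxin reductase, rose from 116 ± 19.6 to 375 ± 179 FPKM, and Srxn1, sulfiredoxin, from 105 ± 49.9 to 779 ± 503 FPKM. Gsta4, a glutathione transferase for lipid peroxidation products, rose from 24.5 ± 5.67 to 77.3 ± 42.7 FPKM. The part of glia in this list, and in the p53 and inflammatory lists below, was not tested.

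Osgin1, an oxidative stress-induced growth inhibitor, had 1.88, 0.662, 1.14 and 0.905 FPKM in CONTROL-VEH and 3.94, 9.14, 19.1 and 51.8 FPKM in OGD-VEH (change on the log2 scale 3.57, SE 0.71, limma padj = 0.0347), with culture 12 highest. Nqo1, a quinone reductase, had 2.01, 1.07, 1.55 and 0.976 FPKM in CONTROL-VEH and 3.94, 6.15, 6.72 and 16.2 FPKM in OGD-VEH (change on the log2 scale 2.33, SE 0.42, limma padj = 0.0336). Hmox1, heme oxygenase 1, was called (log2 fold change 3.03, SE 0.67, limma padj = 0.0411) although the groups overlapped, with 74, 19.7, 22.2 and 14.1 FPKM in CONTROL-VEH and 64.2, 265, 273 and 439 FPKM in OGD-VEH, since CONTROL-VEH 1 exceeded OGD-VEH 9. Slc7a11, the cystine transporter that feeds glutathione synthesis, was separated, with 2.69, 1.76, 1.93 and 3.14 FPKM in CONTROL-VEH and 3.66, 16.6, 14.5 and 52.4 FPKM in OGD-VEH, and missed the threshold narrowly (log2 fold change 2.61, SE 0.68, limma padj = 0.0502).

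Of 62 p53 targets and cell death genes, 56 were tested, 13 rose (23.2%), 0 fell, 24 were separated upwards and the median was 0.67. Trp53 itself, the tumor suppressor that arrests or kills damaged cells, had 55.9, 19.5, 21.6 and 63.1 FPKM in CONTROL-VEH and 108, 166, 134 and 160 FPKM in OGD-VEH (change on the log2 scale 2.0, SE 0.40, limma padj = 0.0347, and 1.44 with isoforms weighted by length). Its controls were uneven, with 2 at or below 21.6 FPKM and 2 at or above 55.9 FPKM. Beside Tnfrsf1a, Tnfrsf12a, the receptor of TWEAK, had 8.87, 6.38, 7.49 and 1.25 FPKM in CONTROL-VEH and 18.2, 56.5, 43.6 and 49 FPKM in OGD-VEH (change on the log2 scale 2.97, SE 0.62, limma padj = 0.0371). Fas had 0.925, 0.522, 0.386 and 0.33 FPKM in CONTROL-VEH and 1.9, 4.12, 5.32 and 8.98 FPKM in OGD-VEH (change on the log2 scale 2.90, SE 0.48, limma padj = 0.0335). Tnfrsf10b, the mouse TRAIL receptor, had 0.9, 0.994, 0.89 and 0.471 FPKM in CONTROL-VEH and 2.04, 5.67, 4.33 and 6.94 FPKM in OGD-VEH (change on the log2 scale 2.32, SE 0.39, limma padj = 0.0336).

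Eda2r, a p53-induced receptor of ectodysplasin, rose from 3.82 ± 1.44 to 20.5 ± 9.44 FPKM, the p53 target Phlda3, an inhibitor of AKT, from 17.6 ± 7.19 to 72.1 ± 21.7 FPKM, and Ccng1, cyclin G1, from 49.9 ± 16.1 to 143 ± 51.4 FPKM (SD, n = 4 each). Gadd45a, Gadd45b, Gtse1, Btg2 and Sesn2 completed the 13. Cdkn1a, the p53-induced inhibitor of the cell cycle, had 53.6, 45.8, 49.6 and 30.8 FPKM in CONTROL-VEH and 58.1, 103, 95.8 and 88.9 FPKM in OGD-VEH, and Mdm2, the ubiquitin ligase of p53, 34.8, 31.2, 29.4 and 33 FPKM in CONTROL-VEH and 37.4, 69.4, 67.9 and 58 FPKM in OGD-VEH. Both were separated and had padj under the threshold but log2 fold changes of 0.94 and 0.82. Casp8, the initiator caspase of death receptors, was low in every culture, with 0.229, 0.318, 0.137 and 0 FPKM in CONTROL-VEH and 0.383, 1.11, 1.0 and 0.928 FPKM in OGD-VEH, and was separated but not called (log2 fold change 1.92, SE 0.55, limma padj = 0.058). Bbc3, which encodes the pro-apoptotic protein PUMA, overlapped between groups, with 15.6, 38.8, 29.8 and 60.5 FPKM in CONTROL-VEH and 24.9, 84.7, 66.8 and 34.8 FPKM in OGD-VEH (change on the log2 scale 0.54, SE 0.49, limma padj = 0.456).

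Of 82 inflammatory genes, 52 passed the filter on low values, and of these 14 rose (26.9%), 0 fell and 21 were separated upwards, 0 downwards. Their median was 0.85. Of the 14, 5 had a CONTROL-VEH mean under 0.5 FPKM. Beside Cxcl10 and Ccl2, the chemokines Ccl7 and Cxcl1 rose. The cytokine Clcf1 of the interleukin 6 family rose from 0.624 ± 0.264 to 6.76 ± 3.97 FPKM, Osmr, a receptor subunit for oncostatin M of the same family, from 0.643 ± 0.199 to 5.03 ± 2.36 FPKM, and the transcription factor Stat3, on which receptors of this family act, from 90.3 ± 12.6 to 196 ± 56.9 FPKM (SD, n = 4 each). Csf1, a growth factor of microglia and macrophages, rose from 2.13 ± 0.43 to 12.8 ± 6.42 FPKM.

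Relb and Nfkb2, the pair of the noncanonical arm of NF-kappaB signaling, rose from 1.67 ± 0.115 to 4.42 ± 1.56 FPKM and from 1.01 ± 0.159 to 3.51 ± 1.67 FPKM, and the coactivator Nfkbiz from 0.675 ± 0.04 to 2.38 ± 1.06 FPKM. Nfkbia, the inhibitor that NF-kappaB induces itself, had 10.7, 11.3, 13.8 and 13.9 FPKM in CONTROL-VEH and 13.1, 22, 24.9 and 29.4 FPKM in OGD-VEH with overlap between the groups and no call (log2 fold change 0.79, SE 0.24, limma padj = 0.0667). Ptgs2, the inducible cyclooxygenase, rose from 0.0562 ± 0.0576 to 1.94 ± 1.12 FPKM, Vcam1, an adhesion molecule, from 12.7 ± 4.53 to 42 ± 17.1 FPKM, and Irf1, a transcription factor of interferon responses, from 2.09 ± 0.418 to 5.04 ± 1.63 FPKM. The microglial markers C1qa, C1qb, C1qc and Tyrobp did not exceed 0.346 FPKM in any culture.

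Matrix genes, which cover collagens, laminins, integrins, proteases and their inhibitors, had a median of 0.59. Of 104 genes, 80 were tested, 14 rose (17.5%) and 0 fell, while 21 were separated upwards and 9 downwards. Of the 14, Timp1, Spp1, Serpinb2 and Plaur had a CONTROL-VEH mean under 0.5 FPKM. Lgals3, galectin-3, a sugar-binding protein of injury, had 5.36, 2.66, 2.28 and 1.58 FPKM in CONTROL-VEH and 7.22, 37.3, 112 and 50.4 FPKM in OGD-VEH (change on the log2 scale 3.66, SE 0.76, limma padj = 0.0367), with culture 11 highest. Cd44, the hyaluronan receptor, rose from 2.73 ± 1.12 to 27.5 ± 13 FPKM and Lgals1, galectin-1, from 9.07 ± 2.9 to 64.6 ± 25.2 FPKM (SD, n = 4 each). The integrin subunits Itga5, Itga7, Itgav and Itgb8 rose, with log2 fold changes of 2.18, 1.74, 1.82 and 1.16, and so did the basement membrane genes Lamc1, Nid1 and Col6a2, with 1.92, 2.20 and 2.01. Itga5 was called although the groups overlapped.

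In the plasminogen system, Plaur, the urokinase receptor, rose from 0.107 ± 0.112 to 1.49 ± 0.836 FPKM, and the inhibitor Serpinb2 from 0.159 ± 0.0167 to 0.849 ± 0.37 FPKM. Spp1, osteopontin, rose from 0.212 ± 0.143 to 1.34 ± 0.377 FPKM. Fn1, fibronectin, and Tnc, tenascin C, overlapped between groups, with 35.6, 51.8, 59.3 and 13.8 FPKM in CONTROL-VEH and 54, 79.4, 55.3 and 109 FPKM in OGD-VEH and 13.4, 12.8, 12.9 and 18.6 FPKM in CONTROL-VEH and 11.4, 23.1, 19.1 and 26 FPKM in OGD-VEH. Mmp3, stromelysin, was listed at 0 in all controls and reached 0.126 FPKM in OGD-VEH, and Adamts7 had 1.96, 1.86, 1.68 and 2.86 FPKM in CONTROL-VEH and 2.33, 7.79, 6.09 and 6.74 FPKM in OGD-VEH (change on the log2 scale 1.31, SE 0.37, limma padj = 0.0571). Glia also make matrix proteins, and beside this list stand the marker sums of 813 to 1690 against 1090 to 2730 FPKM for astrocytes and of 186 to 223 against 255 to 707 FPKM for the oligodendrocyte lineage in CONTROL-VEH against OGD-VEH. Their part in the matrix values was not tested.

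Cytoskeletal and regeneration-associated genes moved in both directions. Of 61 genes, all tested, 8 rose and 1 fell, 11 were separated upwards and 21 downwards, and the median was -0.39. The risers were Emp1, Sprr1a, Anxa1, Anxa2, S100a6, S100a11, Vim and Nes. Sprr1a, a small proline-rich protein known from regenerating axons, had 0, 0, 0.071 and 0 FPKM in CONTROL-VEH and 0.477, 2.96, 2.28 and 2.46 FPKM in OGD-VEH (change on the log2 scale 3.99, SE 0.58, limma padj = 0.0281); the fold change was 1.49 with 1 FPKM added. Vim, the intermediate filament vimentin of glia and progenitors, rose from 454 ± 73.2 to 1640 ± 749 FPKM, and the membrane-binding protein Anxa2 from 9.97 ± 0.909 to 59.7 ± 28 FPKM (SD, n = 4 each). S100a6 was called although the groups overlapped.

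Map1b, a microtubule-associated protein of growing axons, fell and had 542, 757, 803 and 541 FPKM in CONTROL-VEH and 275, 224, 174 and 95.4 FPKM in OGD-VEH (change on the log2 scale -1.86, SE 0.31, limma padj = 0.0336, and -1.01 with isoforms weighted by length). Gap43, the growth cone protein, had 1150, 1250, 1220 and 1210 FPKM in CONTROL-VEH and 1040, 795, 754 and 400 FPKM in OGD-VEH, separated downwards and not called (log2 fold change -0.77, SE 0.25, limma padj = 0.074). The list shares Gap43, Map2, Nefl, Stmn2 and Tubb3 with the neuronal markers, which had a median log2 fold change of -0.91.

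Growth factors and their receptors moved little as a group. Of 92 genes, 78 were tested, 3 rose (3.85%) and 2 fell (2.56%), and the median was -0.01. Hbegf, a ligand of the EGF receptor, had 10.7, 9.55, 10.1 and 7.84 FPKM in CONTROL-VEH and 14.8, 26.4, 23 and 24.2 FPKM in OGD-VEH (change on the log2 scale 1.18, SE 0.20, limma padj = 0.0336). Igfbp3, which binds insulin-like growth factors, had 49.7, 50.4, 41.8 and 38 FPKM in CONTROL-VEH and 60.1, 150, 113 and 88.6 FPKM in OGD-VEH (change on the log2 scale 1.12, SE 0.26, limma padj = 0.0437).

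Fst, follistatin, which blocks activin, fell, with 6.96, 6.68, 8.07 and 4.27 FPKM in CONTROL-VEH and 2.33, 1.2, 1.35 and 0.554 FPKM in OGD-VEH (change on the log2 scale -2.29, SE 0.39, limma padj = 0.0336). Somatostatin, Sst, a peptide of cortical interneurons, had 363, 222, 206 and 330 FPKM in CONTROL-VEH and 181, 39.8, 38.9 and 52.1 FPKM in OGD-VEH (change on the log2 scale -2.14, SE 0.48, limma padj = 0.0416), and OGD-VEH 9 lay far above the other OGD-VEH cultures. Sst was the 1 of 11 interneuron markers that was called. Of the others, Gad1, Gad2, Slc32a1, Lhx6, Npy and Calb2 had log2 fold changes between -1.67 and -0.35, while the transcription factors Dlx1, Dlx2, Dlx5 and Dlx6 had 0.99, 1.09, 0.97 and 1.13. Bdnf, the activity-dependent neurotrophin, and Inhba, the activin subunit, were not called, with 2.48, 2.42, 2.66 and 1.23 FPKM in CONTROL-VEH and 2.04, 1.85, 1.93 and 0.969 FPKM in OGD-VEH and 2.27, 3.07, 3.49 and 1.16 FPKM in CONTROL-VEH and 1.21, 1.53, 2.23 and 0.448 FPKM in OGD-VEH. Vegfa, the angiogenic factor that hypoxia induces, had 138, 129, 99.7 and 75.2 FPKM in CONTROL-VEH and 96.1, 60.9, 104 and 117 FPKM in OGD-VEH, and the groups overlapped (log2 fold change -0.23, SE 0.25, limma padj = 0.544).

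Of 67 presynaptic genes, 66 were tested, 60 of them with a log2 fold change below 0; 9 fell (13.6%) and 1 rose, 34 were separated downwards (51.5%) and 1 upwards, and the median was -0.77. The 9 were the vesicle proteins Syn2, Syn3, Syt1, Syt13 and Snap91, the active zone proteins Erc2 and Rims1, and the regulators of fusion Cplx2 and Rph3a. Erc2 had 56.2, 47.2, 72.9 and 55.3 FPKM in CONTROL-VEH and 27.6, 18, 20.9 and 12.4 FPKM in OGD-VEH (change on the log2 scale -1.59, SE 0.24, limma padj = 0.0288, and -1.06 with isoforms weighted by length). Syn3, a synapsin, had 14.5, 31.7, 27.1 and 46.7 FPKM in CONTROL-VEH and 12.8, 8.59, 7.83 and 4.32 FPKM in OGD-VEH (change on the log2 scale -1.81, SE 0.41, limma padj = 0.0421, and -1.32 with isoforms weighted by length). Syt1, the calcium sensor of fast release, had 95.7, 95.3, 103 and 112 FPKM in CONTROL-VEH and 76.7, 32.5, 33.5 and 18.2 FPKM in OGD-VEH (change on the log2 scale -1.52, SE 0.37, limma padj = 0.0447), with OGD-VEH 9 closest to the controls.

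Syp, synaptophysin, had 671, 577, 619 and 647 FPKM in CONTROL-VEH and 494, 250, 304 and 110 FPKM in OGD-VEH, and Slc17a7, the vesicular glutamate transporter of cortical neurons, 48.8, 51.5, 47.2 and 49.9 FPKM in CONTROL-VEH and 38.3, 15.5, 18 and 7.01 FPKM in OGD-VEH. Both were separated and missed the threshold (log2 fold change -1.31, SE 0.38, limma padj = 0.0605 and log2 fold change -1.57, SE 0.43, limma padj = 0.053). Snap25, a SNARE protein, was also separated, with a log2 fold change of -0.95, and Syn1 overlapped, with -0.71. The 1 presynaptic riser was the vesicle protein Sv2c, with 2.96, 2.06, 2.2 and 2.82 FPKM in CONTROL-VEH and 3.27, 5.44, 5.33 and 6.96 FPKM in OGD-VEH (change on the log2 scale 1.0, SE 0.25, limma padj = 0.0465).

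Of 84 postsynaptic genes, 83 were tested, 79 of them with a log2 fold change below 0; 13 fell (15.7%) and 0 rose, 42 were separated downwards (50.6%) and 0 upwards, and the median was -0.75. Among glutamate receptors, Grin1, the obligatory NMDA receptor subunit, had 196, 207, 193 and 202 FPKM in CONTROL-VEH and 128, 85.5, 72.9 and 30.3 FPKM in OGD-VEH (change on the log2 scale -1.51, SE 0.37, limma padj = 0.0467, and -1.23 with isoforms weighted by length). Its partner Grin2b had 30.9, 38, 34.8 and 31.6 FPKM in CONTROL-VEH and 25.8, 15.5, 16.6 and 10.8 FPKM in OGD-VEH (change on the log2 scale -1.04, SE 0.24, limma padj = 0.0437). The AMPA receptor subunit Gria1 had 53.2, 51.1, 71.7 and 102 FPKM in CONTROL-VEH and 43.2, 21.1, 23.5 and 19.7 FPKM in OGD-VEH (change on the log2 scale -1.39, SE 0.30, limma padj = 0.0401). The metabotropic receptor Grm2 had 6.59, 8.07, 5.32 and 7.98 FPKM in CONTROL-VEH and 2.86, 2.08, 2.02 and 0.87 FPKM in OGD-VEH (change on the log2 scale -1.87, SE 0.33, limma padj = 0.0336), and Grm7 fell as well (-1.79).

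Camk2a, the calcium/calmodulin-dependent kinase of potentiation, had 106, 105, 111 and 128 FPKM in CONTROL-VEH and 71.9, 22.8, 41 and 12.6 FPKM in OGD-VEH (change on the log2 scale -1.88, SE 0.46, limma padj = 0.0461, but -1.28 with isoforms weighted by length and -5.34 with the highest isoform alone), and Camk2b fell from 335 ± 30.1 to 156 ± 53.3 FPKM. Of the scaffolds, Dlgap3 fell from 99.2 ± 8.98 to 29.1 ± 12.1 FPKM and Shank1 from 64.3 ± 9.74 to 29.9 ± 9.83 FPKM (SD, n = 4 each). Dlg4, which encodes PSD-95, had 526, 572, 556 and 666 FPKM in CONTROL-VEH and 545, 374, 347 and 252 FPKM in OGD-VEH, and OGD-VEH 9 lay within the control range (log2 fold change -0.66, SE 0.21, limma padj = 0.0704). The GABA-A receptor subunits Gabra4 and Gabrb1 fell, with log2 fold changes of -1.61 and -1.14. Serotonin receptors were low, and of the 5 of them that the rule named and that passed the filter, Htr7 alone was called, with 1.39, 1.0, 1.39 and 1.41 FPKM in CONTROL-VEH and 0.696, 0.402, 0.628 and 0.305 FPKM in OGD-VEH (change on the log2 scale -1.24, SE 0.31, limma padj = 0.0461). Htr1a had 2.48, 2.15, 2.09 and 2.63 FPKM in CONTROL-VEH and 1.72, 1.02, 1.32 and 0.469 FPKM in OGD-VEH, separated and not called (log2 fold change -1.10, SE 0.35, limma padj = 0.0709). Htr2c had 3.26, 2.95, 2.85 and 3.08 FPKM in CONTROL-VEH and 3.49, 0.731, 0.962 and 0.794 FPKM in OGD-VEH, with OGD-VEH 9 above all controls (log2 fold change -1.27, SE 0.44, limma padj = 0.0863). Htr1b and Htr6 overlapped between groups, with log2 fold changes of -0.45 and -0.18, and Htr4 was under the filter.

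Channels, calcium pumps and exchangers had a median of -0.80 over 91 of 93 genes, of which 14 fell (15.4%) and 0 rose, and 42 were separated downwards (46.2%) and 0 upwards. Atp2b4, a plasma membrane calcium pump, had 59.7, 74.8, 81.4 and 95.6 FPKM in CONTROL-VEH and 26.9, 23.6, 26.4 and 11.6 FPKM in OGD-VEH (change on the log2 scale -1.86, SE 0.28, limma padj = 0.0282), with a gap of 1.15; the change was -1.24 with isoforms weighted by length and -5.03 with the highest isoform alone. Atp2b3 had 8.79, 8.05, 8.67 and 11.5 FPKM in CONTROL-VEH and 6.33, 2.7, 3.03 and 1.9 FPKM in OGD-VEH (change on the log2 scale -1.51, SE 0.33, limma padj = 0.0408), and the sodium-calcium exchanger Slc8a2 31.4, 33.2, 34.9 and 40.4 FPKM in CONTROL-VEH and 26.4, 14.7, 15.1 and 8.9 FPKM in OGD-VEH (change on the log2 scale -1.20, SE 0.29, limma padj = 0.0448). The calcium-handling genes among the 14 thus included 2 pumps, 1 exchanger and Itpr1, the calcium release channel of the endoplasmic reticulum, which fell from 48.1 ± 8.51 to 18.8 ± 12.4 FPKM.

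Potassium channel genes made up most of the others. Kcnh3 had 19.5, 24.9, 27.3 and 21 FPKM in CONTROL-VEH and 13.1, 7.9, 8.12 and 3.62 FPKM in OGD-VEH (change on the log2 scale -1.61, SE 0.34, limma padj = 0.0383). Kcnb2, Kcnc2, Kcnip4, Kcnj6, Kcnj9 and Kcnma1 fell with log2 fold changes between -1.60 and -1.03, and the pacemaker channel Hcn3 fell from 40.6 ± 5.95 to 16 ± 4.15 FPKM. The calcium channel Cacna1a was separated and not called (log2 fold change -1.04, SE 0.32, limma padj = 0.0679), and the sodium channel Scn1a likewise (log2 fold change -0.89, SE 0.37, limma padj = 0.125). Beside these 3 lists stand the neuronal marker sums of 3890 to 4420 FPKM in CONTROL-VEH and 1580 to 3460 FPKM in OGD-VEH, and a median log2 fold change of -0.91 over the 9 markers. The presynaptic list shares Snap25 and Syt1 with these markers. The part of the markers in the synaptic and channel values was not tested.

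**Figure D4:**
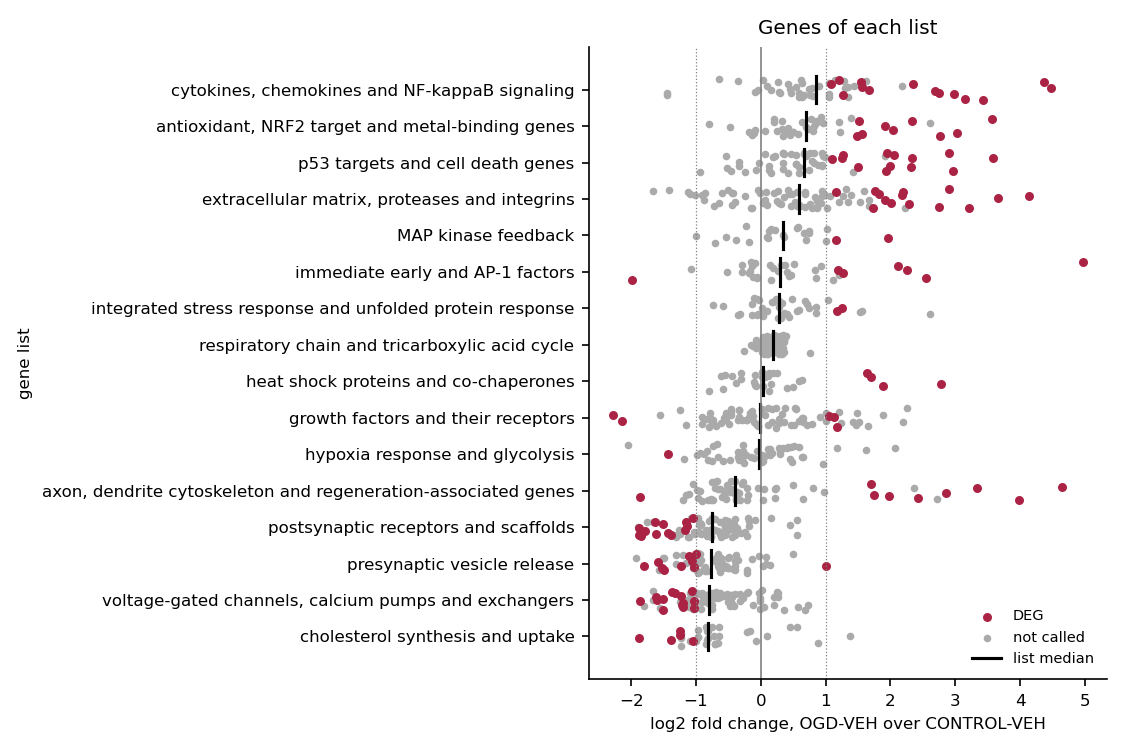
Log2 fold change (OGD-VEH over CONTROL-VEH, x axis) of each gene tested in the 16 pathway lists (y axis, ordered by the list median, black bar), with DEGs in red and other genes in grey; dotted lines mark a log2 fold change of 1 and -1, and the vertical position within a list is arbitrary. The medians ran from 0.85 for cytokines to -0.82 for cholesterol genes, and the postsynaptic and channel lists held 13 and 14 DEGs, all of them downregulated.

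Hypoxia response and glycolysis genes, many of which the factor HIF-1 raises when oxygen is low, had a median of -0.02. The list also holds other genes, such as Hif1a itself, so this median is not that of HIF-1 targets alone. Of 53 genes, 52 were tested, 0 rose and 1 fell, 3 were separated upwards (5.77%) and 4 downwards (7.69%). By unadjusted p under 0.05, 6 of the 52 were higher and 15 lower, against 21.7% and 16.4% of protein-coding genes. Hif1a, the oxygen-regulated subunit of HIF-1, had 71.6, 82.2, 89.4 and 72.9 FPKM in CONTROL-VEH and 84, 81.9, 80.2 and 99.7 FPKM in OGD-VEH (change on the log2 scale 0.13, SE 0.12, limma padj = 0.456). Slc2a1, the glucose transporter GLUT1, had 10.4, 9.6, 7.92 and 6.89 FPKM in CONTROL-VEH and 10.6, 46.5, 40.8 and 88.7 FPKM in OGD-VEH, and 3 OGD-VEH cultures were far above the controls while OGD-VEH 9 barely exceeded them (log2 fold change 2.08, SE 0.55, limma padj = 0.0518, and 1.33 with isoforms weighted by length). Pdk1, which holds pyruvate back from mitochondria, went the other way without a call, with 24.8, 20.1, 14.3 and 15.3 FPKM in CONTROL-VEH and 14.1, 8.83, 8.57 and 6.59 FPKM in OGD-VEH (change on the log2 scale -0.98, SE 0.26, limma padj = 0.0518). Ldha, lactate dehydrogenase, overlapped between groups, at 417 to 700 and 416 to 567 FPKM. The 1 gene that fell was Egfl7, a secreted vascular protein, with 13, 8.31, 18.6 and 23.9 FPKM in CONTROL-VEH and 9.03, 5.2, 4.37 and 4.16 FPKM in OGD-VEH and overlapping groups (log2 fold change -1.44, SE 0.36, limma padj = 0.0479).

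Respiratory chain and tricarboxylic acid cycle genes, all 89 tested, had a median of 0.18. By limma 0 were called, against 4.55% of protein-coding genes in both directions. In the group of protein-coding genes with the highest expression level, 0.573% were upregulated and 2.05% downregulated. Of the list, 24 were separated upwards (27.0%) and 0 downwards. By unadjusted p under 0.05, 34 were higher and 0 lower, against 21.7% and 16.4% of protein-coding genes. Cox4i1, a subunit of cytochrome c oxidase, had 1520, 1350, 1510 and 1560 FPKM in CONTROL-VEH and 1560, 1730, 1660 and 1850 FPKM in OGD-VEH (change on the log2 scale 0.20, SE 0.07, limma padj = 0.0997), so that the groups were separated by a small difference. Cs, citrate synthase, and Ndufs1, a subunit of complex I, overlapped, with log2 fold changes of 0.10 and 0.16. With median-ratio scaling in place of the deposited TMM scaling, the median of the list was 0.10 and that of all genes 0.019.

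Cholesterol synthesis and uptake genes, many of which the factor SREBP2 controls, had a median of -0.82. The list also holds genes of cholesterol efflux. Log2 fold changes were below 0 for 29 genes and above 0 for 5, up to 1.38. By unadjusted p under 0.05, 24 were lower and 2 higher, against 16.4% and 21.7% of protein-coding genes. Of 36 genes, 34 were tested, 5 fell (14.7%) and 0 rose, and 10 were separated downwards (29.4%). Dhcr7, the enzyme of the last step, had 218, 187, 198 and 71.7 FPKM in CONTROL-VEH and 84.6, 33.6, 36.1 and 30.3 FPKM in OGD-VEH, and CONTROL-VEH 4 lay below OGD-VEH 9 (log2 fold change -1.88, SE 0.43, limma padj = 0.0427, and -1.19 with isoforms weighted by length). Mvk, Mvd and Ebp, further enzymes of the pathway, fell with log2 fold changes of -1.04, -1.25 and -1.25. Hmgcs1, an early enzyme of the pathway, had 802, 787, 739 and 529 FPKM in CONTROL-VEH and 511, 490, 385 and 258 FPKM in OGD-VEH and was separated but not called (log2 fold change -0.83, SE 0.23, limma padj = 0.0547). CONTROL-VEH 4 had the lowest control value of each cholesterol gene named here.

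In 11 of the 16 lists OGD-VEH 9 was nearest to the controls and OGD-VEH 12 farthest, with OGD-VEH 10 and 11 between them in either order. The median change from the CONTROL-VEH mean was 0.21, 1.03, 0.83 and 1.42 in OGD-VEH 9, 10, 11 and 12 for the inflammatory list and 0.25, 0.77, 0.76 and 0.96 for the p53 list. For the presynaptic list it was -0.27, -0.87, -0.79 and -1.28, for the postsynaptic list -0.29, -0.76, -0.69 and -1.20 and for the channel list -0.26, -0.74, -0.66 and -1.43. In these 5 lists OGD-VEH 10 lay beyond OGD-VEH 11, while the antioxidant list, with 0.19, 0.66, 0.71 and 1.24, and the cholesterol list, with -0.24, -0.75, -0.86 and -1.34, had OGD-VEH 11 beyond 10. The MAP kinase, heat shock, growth factor, hypoxia and immediate early lists did not have these extremes. The immediate early list had -0.13, 0.70, 0.50 and 0.11, so that OGD-VEH 12 was close to the controls and OGD-VEH 10 highest. The median changes of the 4 CONTROL-VEH cultures lay between -0.39 and 0.16 over the 16 lists. The neuronal markers ran in parallel, with -0.33, -0.82, -0.68 and -1.69 in OGD-VEH 9, 10, 11 and 12, but they share Snap25 and Syt1 with the presynaptic list. The astrocyte markers ran in parallel as well, with 0.16, 0.54, 0.54 and 1.45. Whether the neuronal or astrocyte markers account for the order was not tested.

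**Figure D5:**
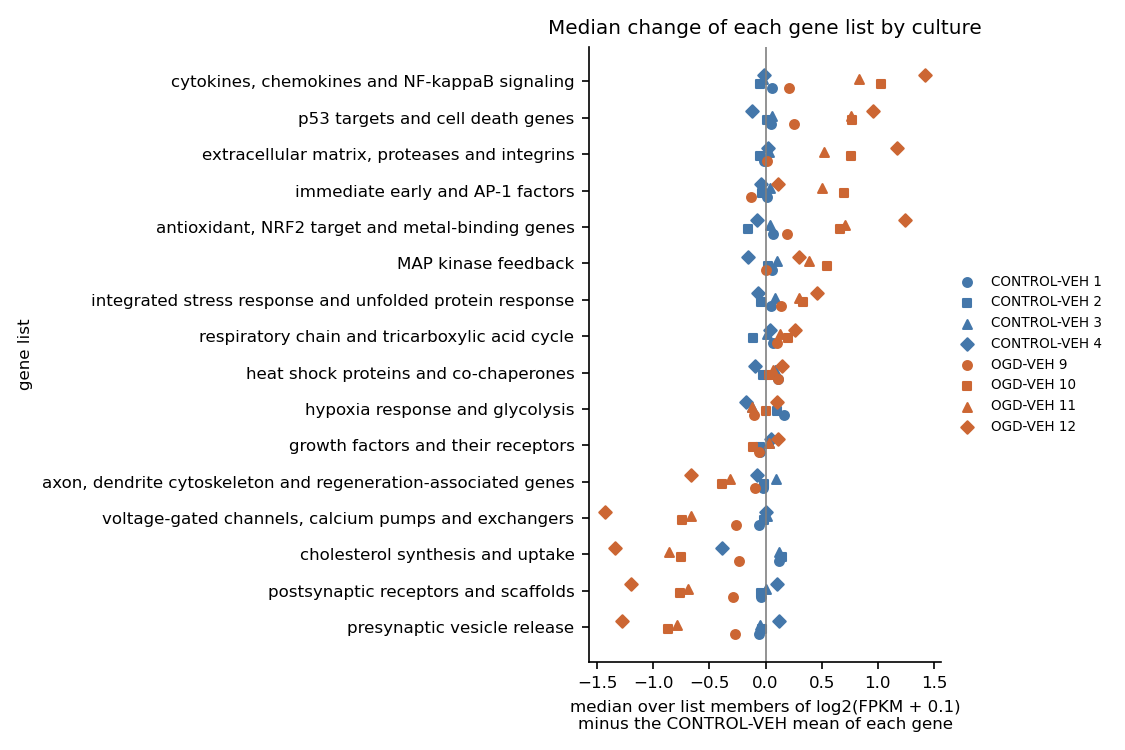
Median over the genes of each list (y axis) of log2(FPKM + 0.1) minus the CONTROL-VEH mean of the gene (x axis), 1 symbol per culture, with CONTROL-VEH in blue and OGD-VEH in orange; small vertical offsets within a list only keep symbols apart. In the inflammatory list the 4 OGD-VEH cultures sit at 0.21 to 1.42, and in the presynaptic list at -1.28 to -0.27, with OGD-VEH 9 nearest to 0 in both.

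Protein-coding genes were also divided into 4 groups of near equal size by the span of the gene on the genome. The group with the longest genes, from 62700 bases, had a median log2 fold change of -0.05 and 3.44% downregulated DEGs, against 1.12% to 1.54% in the other 3 groups. No test was run on these shares.

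The DEGs were also looked up in the cultures with TIA, which share no culture with the comparison above. Of the 357 upregulated protein-coding DEGs, 349 had a log2 fold change above 0 between OGD-TIA and CONTROL-TIA, against 7412 of all 13265 protein-coding genes tested. Of the 357, 206 were separated upwards (57.7%), against 10.4% of all protein-coding genes. Of the 246 downregulated DEGs, 240 were below 0, against 5852 of the 13265, and 131 were separated downwards (53.3%), against 7.27%. The median log2 fold change was 0.76 with TIA and 1.53 with vehicle for the former, and -0.67 and -1.33 for the latter. OGD-TIA 16 stood apart from OGD-TIA 13, 14 and 15. Measured from the CONTROL-VEH mean, the upregulated DEGs had medians of 0.61, 0.74, 0.59 and 1.61 in OGD-TIA 13, 14, 15 and 16. For the downregulated DEGs these were -0.47, -0.52, -0.46 and -1.23. These DEGs were chosen for a large change with vehicle, so the smaller medians with TIA are not evidence of a difference. The interaction of OGD and TIA reached padj of at most 0.05 in 0 of the DEGs, with a smallest limma padj of 0.722, and by unadjusted p under 0.05 in 104 and 76 of them, against 799 of the 13265 protein-coding genes tested. The choice of the DEGs by their change with vehicle raises these counts as well.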

How the data were processed

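Stranded mRNA libraries of 8 cultures were compared, 4 in CONTROL-VEH and 4 in OGD-VEH, as titled in the sample labels. The authors' service provider mapped 50-base single-end reads with STAR to GRCm38 (Ensembl annotation) and estimated isoforms with eXpress; the deposited values are FPKM per isoform after TMM scaling. The 135202 isoforms with an identifier were summed to 53679 gene symbols, 74 lines without one were left out, and gene types came from GENCODE M21. The study's DESeq2 needs counts and was not used. In its place, limma 3.58.1 (R 4.3.3, empirical Bayes with trend) was run on log2(FPKM + 0.1) for genes whose mean was 0.5 FPKM or more. Tests were two-sided, with Benjamini-Hochberg adjustment over all genes tested. Fold changes are on this scale and understate changes of low genes. The fit was tried on simulated independent genes with the CONTROL-VEH spread in both groups, which does not cover the uneven spread within OGD-VEH. No read counts were used, so depth was only estimated and counting intervals are not given. Single genes were also tested by exact permutation.

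Gene lists, members and the rule for named genes were chosen with earlier results of these data known. The rule took the 5 DEGs of largest fold change and the 5 genes of widest gap in each direction, up to 2 DEGs per list and direction, fixed members of each list and genes the study names. A few genes that the rule took are not reported here. Alternatives were the pseudocount, the filter, the scaling, sample weights, robust estimation, all 16 cultures, other isoform summaries, protein-coding genes only and each culture left out. Python 3.11.15, numpy 2.4.6, pandas 2.3.3 and matplotlib 3.10.9 did the rest.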

Additional observations from a re-analysis of the deposited data

Results flagged for a closer look

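Within each group, the highest or lowest of the 4 cultures was compared with the others by Dixon's ratio on log2(FPKM + 0.1) for each named gene that was tested. Of 220 groups, 24 were flagged (10.9%), against about 1 in 20 expected by chance, and 9 of the 24 were in CONTROL-VEH 4, 7 in OGD-VEH 9 and 5 in OGD-VEH 12. CONTROL-VEH 4 lay above the other CONTROL-VEH cultures for Tnc (18.6 against 12.8 to 13.4 FPKM) and Gfap (87.4 against 6.53 to 7.56 FPKM). CONTROL-VEH 4 lay below the other CONTROL-VEH cultures for Hspb1 (0.078 against 0.637 to 0.712 FPKM), Hspa1b (2.19 against 7.61 to 7.81 FPKM), Bdnf (1.23 against 2.42 to 2.66 FPKM) and Ldha (417 against 644 to 700 FPKM). CONTROL-VEH 4 lay below the other CONTROL-VEH cultures for Dhcr7 (71.7 against 187 to 218 FPKM), Tnfrsf10b (0.471 against 0.89 to 0.994 FPKM) and Htr1b (0.65 against 0.83 to 0.868 FPKM). OGD-VEH 9 lay above the other OGD-VEH cultures for Dhcr7 (84.6 against 30.3 to 36.1 FPKM) and Htr2c (3.49 against 0.731 to 0.962 FPKM). OGD-VEH 9 lay below the other OGD-VEH cultures for Fosl1 (1.96 against 6.77 to 8.63 FPKM), Gbp2 (1.44 against 9.35 to 11.6 FPKM), Dusp1 (5.9 against 9.43 to 9.54 FPKM) and Sprr1a (0.477 against 2.28 to 2.96 FPKM). OGD-VEH 9 lay below the other OGD-VEH cultures for Olig2 (69 against 154 to 174 FPKM). OGD-VEH 12 lay above the other OGD-VEH cultures for Aqp4 (31.2 against 9.52 to 11.6 FPKM). OGD-VEH 12 lay below the other OGD-VEH cultures for Egr3 (1.57 against 4.43 to 5.33 FPKM), Bdnf (0.969 against 1.85 to 2.04 FPKM), Atp2b4 (11.6 against 23.6 to 26.9 FPKM) and Scn1a (1.2 against 3.73 to 4.05 FPKM). CONTROL-VEH 1 lay above the other CONTROL-VEH cultures for Dusp5 (2.4 against 1.57 to 1.63 FPKM). CONTROL-VEH 2 lay below the other CONTROL-VEH cultures for Htr7 (1 against 1.39 to 1.41 FPKM). CONTROL-VEH 3 lay above the other CONTROL-VEH cultures for Sprr1a (0.071 against 0 FPKM).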

How the results depend on the processing

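The 16 list medians moved by less than the spread between OGD-VEH cultures (1 SD) in 186 of 192 values from fits that kept all cultures or left out CONTROL-VEH 4 and OGD-VEH 12 together. The exceptions were heat shock (-0.05 with median-ratio scaling, 0.13 with the highest isoform alone), growth factors (0.10 without the filter), hypoxia (-0.17 with array quality weights, -0.21 without CONTROL-VEH 4 and OGD-VEH 12) and respiratory genes (0.10 with median-ratio scaling). The spread differed between lists, with OGD-VEH medians from -1.43 to -0.26 for channels but from 0.03 to 0.15 for heat shock genes. Lists with a wide spread could therefore hardly exceed it. DEG counts depended on the setting. Upregulated and downregulated DEGs numbered 26 and 10 without the filter, 13 and 6 with the highest isoform alone, 632 and 441 with isoforms weighted by length, 1141 and 788 with array quality weights and 753 and 659 with all 16 cultures in the fit. With CONTROL-VEH 4 and OGD-VEH 12 left out together, chosen after the data were seen, they were 0 and 2 by limma, and 3354 and 2557 genes were separated. With single cultures left out, the ranges were 1 to 1185 and 0 to 1001 DEGs, 2199 to 4209 and 1763 to 2842 separated genes (highest without OGD-VEH 9), and medians of -0.11 to 0.11 for growth factors and -0.14 to 0.02 for hypoxia genes. Signs of uncalled genes turned for Jun (0.00 without CONTROL-VEH 4 and OGD-VEH 12), with single cultures left out, Dusp6 (-0.14 to 0.41), Hspa1b (-0.52 to 0.17) and Aqp4 (-0.19 to 0.54) and, with the highest isoform alone, Bbc3 (-1.92) and Vegfa (0.15). No called named gene changed sign under any alternative, which for separated genes was fixed in advance where cultures were only left out. No paired analysis was run, since cultures are numbered 1 to 16 across groups and the labels name no pairs. CONTROL-VEH 4 and OGD-VEH 12 had the highest values of their groups for Gfap (87.4 and 85.9 FPKM) and Aqp4 (23.4 and 31.2 FPKM). Whether cultures at the same position in their groups shared a preparation was not tested. Limits: depth is estimated, 1 read on 1 kb being worth about 0.05 FPKM, so control levels of genes such as Sprr1a and Cxcl10 rest on few reads, and the deposited scaling cannot be undone.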
